A study of Mus musculus with 6 samples.

Results

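The miR-181 family is a set of microRNAs (miRNAs), short RNAs that guide Argonaute proteins to messenger RNAs and lower their output. A miRNA is cut from a hairpin precursor, whose left side gives the 5p arm and whose right side gives the 3p arm. Pairing to targets rests mainly on the seed, bases 2 to 8 of the mature RNA, so miRNAs with the same seed can reach overlapping targets. miR-181 is best known for setting the sensitivity of developing T cells to antigen, and it is also expressed in brain, where it has been studied in neurons and glia.

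Members were the mouse-named entries whose base name is miR-181a, miR-181b, miR-181c or miR-181d, every arm and sequence variant included. This gave 8 of the 1046 entries that remained after repeated rows were merged from the 1080 listed: 3 of miR-181a, 1 of miR-181b, 2 of miR-181c and 2 of miR-181d, with 4 on each arm. All 8 had a mean of at least 1 and were tested.

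Small RNA was sequenced from N2A (Neuro2A) cells, a mouse neuroblastoma line. The compared cells were given si-circCpsf6, an siRNA against the circular RNA circCpsf6 (3 libraries), or the control siRNA si-NC (3 libraries). Both siRNAs were given with RNA iMAX Reagent at 100 nM, and all cells grew in DMEM with fetal bovine serum and antibiotics. The comparison asks how miRNA levels differ when circCpsf6 is targeted. How far circCpsf6 fell was not analysed here. Whether the 3 replicates are separate cultures is not in the labels, and the spread that the p-values use may be technical.

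All 4 members carry the same 5p seed, and 4 mature mouse sequences in the RefSeq table have it, all of them miR-181. The mature 5p sequences are printed here because they show how close the members are, with the seed in capitals (RefSeq, GRCm38.p6).
miR-181a-5p: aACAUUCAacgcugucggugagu
miR-181b-5p: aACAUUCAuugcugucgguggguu
miR-181c-5p: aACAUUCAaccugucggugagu
miR-181d-5p: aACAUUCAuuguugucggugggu
miR-181a-5p and miR-181c-5p are separated by 1 edit, an inserted base. miR-181b-5p and miR-181d-5p differ over 23 compared bases by the single substitution C12U, with positions counted from the 5′ end and the miR-181b base first.

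The listed 3p arms do not all share a seed, and each comes from 1 hairpin. They are shown because they tell the genomic copies apart where the 5p arm of miR-181a, shared by 2 hairpins, cannot.
miR-181a-1-3p: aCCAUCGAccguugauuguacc
miR-181a-2-3p: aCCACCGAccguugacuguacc
miR-181c-3p: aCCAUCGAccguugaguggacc
miR-181d-3p: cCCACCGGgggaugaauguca
In this set miR-181a-1-3p and miR-181c-3p share a seed, and they differ by U16G and U19G (miR-181a-1-3p first). The seeds of miR-181a-2-3p and miR-181d-3p are held by no other mature sequence of the RefSeq table. The 3p arms of the miR-181b hairpins were not among the listed entries.

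The hairpins lie in 3 pairs on GRCm38, which is not the build in the submitters' processing notes (mm9). Mir181a-1 (chr1:137966455-137966541) and Mir181b-1 (chr1:137966639-137966718) are 97 bases apart on the plus strand, inside an exon of A430106G13Rik, annotated as a long noncoding RNA. Mir181a-2 (chr2:38852735-38852810) and Mir181b-2 (chr2:38853830-38853918) are 1019 bases apart, within an intron of Nr6a1, a nuclear receptor gene on the opposite strand. Mir181c (chr8:84178873-84178961) and Mir181d (chr8:84178716-84178787) are 85 bases apart on the minus strand, in an intron of Nanos3, a germ cell gene on the same strand.

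The name of the only miR-181b entry analysed here is miR-181b-5p_R+1_1ss12CT, whose suffix is read as 1 base more at the 3′ end and a C-to-T change at position 12. That is the position and kind of change that separates miR-181b-5p from miR-181d-5p. Built from the Mir181b-1 hairpin with that suffix, the sequence equals 25 of 25 bases of the Mir181d hairpin, counted from the start of its 5p arm. Built from Mir181b-2, it equals 24 of 25. The hairpins are printed here to show this, with the mature arms in capitals (RefSeq, GRCm38.p6).
Mir181d: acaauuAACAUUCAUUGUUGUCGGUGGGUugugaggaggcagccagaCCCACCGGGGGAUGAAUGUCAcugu
Mir181b-1: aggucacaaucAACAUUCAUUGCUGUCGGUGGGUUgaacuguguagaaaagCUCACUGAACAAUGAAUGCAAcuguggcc
Read this way, the miR-181b entry and the miR-181d-5p entry describe the same locus sequence at different lengths. The split between them is therefore uncertain, and their sum and joint share are given further on. The labels and file headers do not state the suffix convention.

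The values are the authors' normalized read numbers, whose summed totals after merging ran from 2826263 to 3219618 in si-circCpsf6 and from 2516481 to 2990340 in si-NC. The read depth behind them is unknown, so no counting interval is given. si-NC replicate 3 stood apart: 488 of its entries were at 0 and 14 had values from 1 to 18, against 197 to 329 at 0 and 168 to 299 from 1 to 18 in the other 5 libraries. Where leaving it out moved a miR-181 value by much, both values are given. Neuronal miRNAs fixed as a check of the cell type were listed for 8 of 8 members. The highest were miR-7a-5p (266929 ± 86621 in si-circCpsf6 and 169637 ± 75643 in si-NC, mean ± SD, n = 3 per group, as throughout) and miR-218-5p (18727 ± 6125 in si-circCpsf6 and 22617 ± 11189 in si-NC). The lowest were miR-124-3p and miR-9-5p, with means of 393 and 148 over the 6 libraries. Epithelial miRNAs summed to 7 to 62 in si-circCpsf6 and 151 to 431 in si-NC (5 of 6 members with lower values, median log2 change -2.39, 0 called), miR-205-5p being at 0 in all si-NC libraries. Mesenchymal and endothelial miRNAs, 5 of 6 tested, summed to 88522 to 113025 in si-circCpsf6 and 71035 to 111621 in si-NC (5 of 5 with higher values, median 0.38, 0 called). A list of 7 entries whose names are tied to rRNA, tRNA or snoRNA, a sign of RNA breakdown, summed to 6914 to 10349 in si-circCpsf6 and 8961 to 14279 in si-NC (6 of 7 members with lower values, median log2 change -1.73, 0 called). Whether any of these bears on miR-181 was not tested.

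In N2A cells the family was mainly mmu-miR-181c and mmu-miR-181d, the chromosome 8 pair, at about the same level. The entries named mmu-miR-181b and mmu-miR-181a were far below them. By the reading of its suffix above, the mmu-miR-181b entry may be a longer form of mmu-miR-181d, so it does not show that miR-181b itself was present. The miR-181c-5p entry (R+2, 2 bases longer at the 3′ end) was listed at 8297, 7313 and 12049 in si-circCpsf6 replicates 1, 2 and 3, and at 4577, 6393 and 13219 in si-NC replicates 1, 2 and 3. In both groups replicate 3 was the highest, and the groups overlap. The miR-181d-5p entry (R+1) was listed at 6537, 8818 and 8218 in si-circCpsf6, against 8598, 9887 and 9608 in si-NC. Its highest si-circCpsf6 library lay above its lowest si-NC library, so the groups overlap here too.

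The miR-181b entry was listed at 1638, 1661 and 1362 in si-circCpsf6 and at 1640, 2233 and 1268 in si-NC, where the lowest and the highest value both belong to si-NC. For miR-181a-5p, the member most studied in T cells, the values were 993, 779 and 949 in si-circCpsf6 and 944, 1252 and 946 in si-NC. Only si-NC replicate 2 exceeded the si-circCpsf6 range. By mean over the 6 libraries the miR-181c-5p and miR-181d-5p entries ranked 67 and 68 of 1046, the miR-181b entry 166 and miR-181a-5p 205.

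The 3p arm of miR-181c was listed at about the level of the 5p arm of miR-181a. miR-181c-3p was listed at 812, 1038 and 937 in si-circCpsf6 and at 1247, 1188 and 818 in si-NC, with si-NC replicate 3 inside the si-circCpsf6 range. miR-181a-2-3p was at 34, 51 and 77 in si-circCpsf6 and 55, 81 and 54 in si-NC. miR-181a-1-3p was at 14, 15 and 31 in si-circCpsf6 and 30, 22 and 23 in si-NC. These ranked 436 and 531 of 1046 by mean, and the groups overlap for each. miR-181d-3p was at 8, 41 and 6 in si-circCpsf6 and at 14, 27 and 0 in si-NC, the 0 being in the library that lists few low values.

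**Figure D1:**
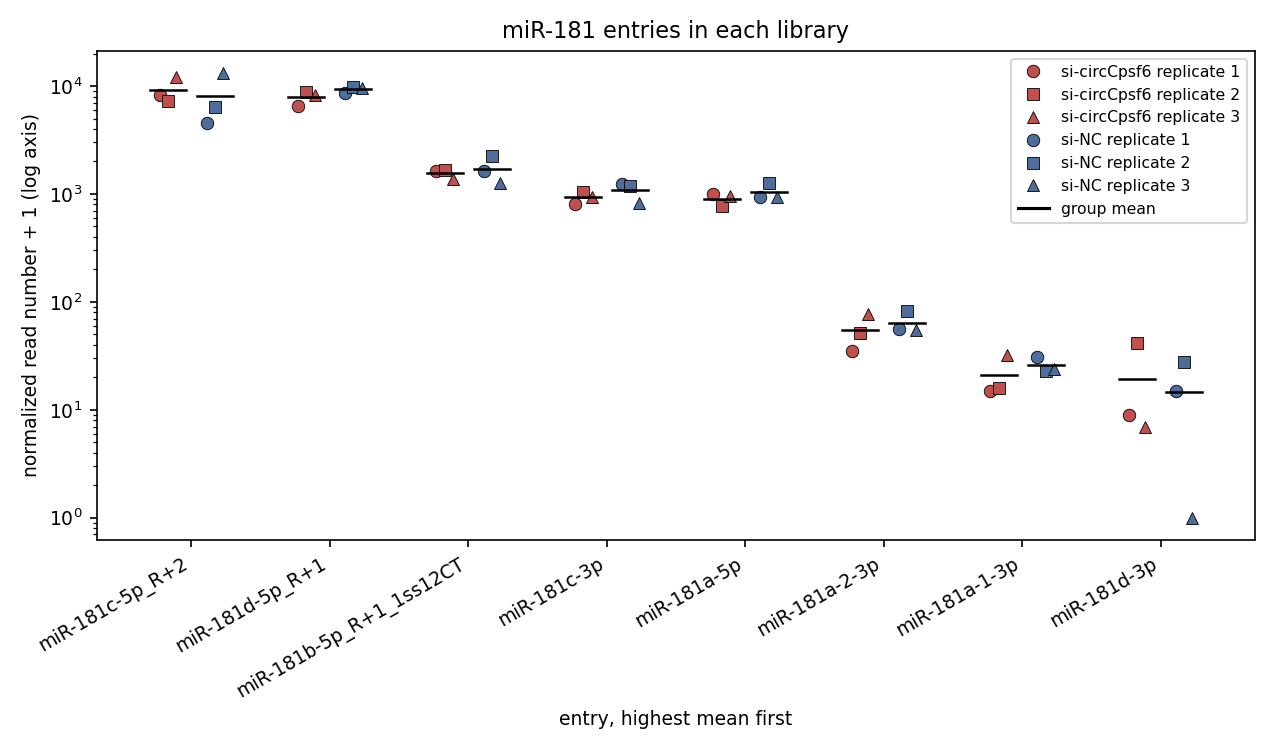
Normalized read number plus 1 on a log axis for the 8 miR-181 entries, with si-circCpsf6 libraries in red left of si-NC libraries in blue, 1 symbol per replicate and a line at each group mean. The miR-181c-5p and miR-181d-5p entries lie between 4577 and 13219, the miR-181b entry, miR-181c-3p and miR-181a-5p between 779 and 2233, and the other 3p arms at or under 81, with overlapping groups for every entry.

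These values are read numbers of short RNAs, whose RefSeq mature forms have 21 to 24 bases and whose suffixed entries are read as 1 or 2 bases longer, and were compared without a length correction; how evenly the library kit captured each sequence is not known. In the order of means, miR-181c-5p exceeded miR-181d-5p in 3 of 6 libraries, so those neighbours do not differ beyond their spread. miR-181d-5p exceeded the miR-181b entry in 6 of 6, by 5.27-fold in the means, though these entries may be the same sequence at different lengths. The miR-181b entry exceeded miR-181c-3p in 6 of 6 libraries, by 1.62-fold in the means. miR-181c-3p exceeded miR-181a-5p in 2 of 6 libraries although its mean was higher, so these too do not differ beyond their spread. miR-181a-5p lay above miR-181a-2-3p in 6 of 6 (16.7-fold in the means), miR-181a-2-3p above miR-181a-1-3p in 6 of 6 (2.61-fold), and miR-181a-1-3p above miR-181d-3p in 4 of 6.

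No miR-181 entry passed the test between si-circCpsf6 and si-NC. By limma on log2(value + 1), 0 of 8 miR-181 entries and 0 of 916 entries tested (0.00%) had a Benjamini-Hochberg adjusted p under 0.05. Without adjustment 0 of the 8 and 57 of the 916 (6.22%) had a p under 0.05. Over all entries 31 were called with array weights and 4 without si-NC replicate 3, none of them miR-181. The values of the groups were apart for 0 of the 8, against 107 of all entries tested (11.7%, of which 6.77% were higher and 4.91% lower in si-circCpsf6). In these bulk samples fewer cells of a kind and less RNA per cell cannot be told apart. Of the 8 entries, 6 had a log2 change below 0, against 401 of 916 (43.8%), with a median of -0.20 for the family and 0.086 over all entries. A p that misses the threshold does not show that levels were equal, and the intervals give the sizes that remain possible.

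Among the 5p arms, miR-181d-5p averaged 7858 ± 1182 in si-circCpsf6 and 9364 ± 678 in si-NC, a log2 change of -0.26 (95% interval -0.81 to 0.29, limma adjusted p = 0.904). miR-181a-5p averaged 907 ± 113 in si-circCpsf6 and 1047 ± 177 in si-NC (log2 change -0.20, interval -0.83 to 0.43). For the miR-181b entry the means were 1554 ± 166 in si-circCpsf6 and 1714 ± 487 in si-NC (log2 change -0.11, interval -0.78 to 0.56). The miR-181b and miR-181d entries together, which may be one sequence at different lengths, summed to 8175, 10479 and 9580 in si-circCpsf6 and to 10238, 12120 and 10876 in si-NC. The groups overlap, as the sum of si-circCpsf6 replicate 2 lay above that of si-NC replicate 1.

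miR-181c-5p was the one 5p arm with higher values in si-circCpsf6, at 9220 ± 2499, against 8063 ± 4557 in si-NC (log2 change 0.31, interval -0.64 to 1.25, limma adjusted p = 0.945). This value moved with single si-NC libraries. Without si-NC replicate 3 it was 0.74 (interval 0.018 to 1.45, unadjusted p = 0.0461, adjusted p = 0.341), and without si-NC replicate 1 it was -0.029. Over all alternatives tried its adjusted p ran from 0.140 to 0.990.

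On the 3p side, miR-181c-3p averaged 929 ± 113 in si-circCpsf6 and 1084 ± 233 in si-NC (log2 change -0.21, interval -0.87 to 0.46, -0.40 without si-NC replicate 3). miR-181a-2-3p had a log2 change of -0.28 (interval -1.58 to 1.03), which was 0.011 without si-circCpsf6 replicate 1. For miR-181a-1-3p it was -0.39 (interval -2.03 to 1.26). At these low levels the intervals span more than a doubling either way for miR-181a-1-3p and are wider still for miR-181d-3p (log2 change 0.89, interval -2.36 to 4.13), which turned to -0.57 without si-NC replicate 3.

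**Figure D2:**
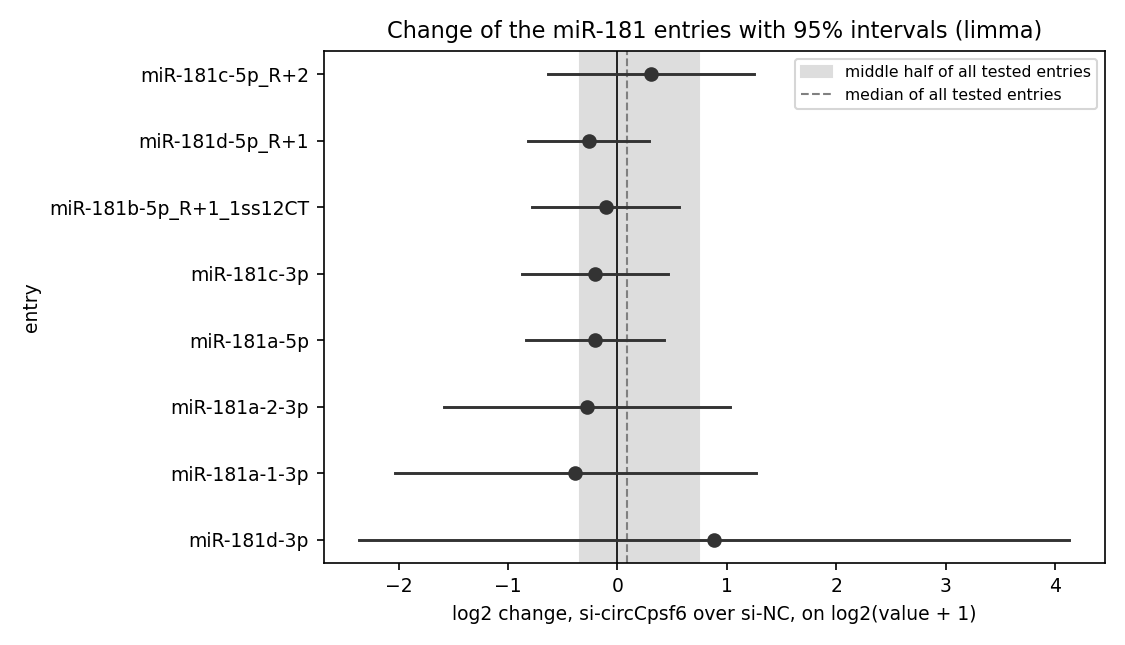
Log2 change of si-circCpsf6 over si-NC on log2(value + 1) for each miR-181 entry (points) with its 95% interval from limma (lines), over the quartile range (grey band, -0.34 to 0.75) and median (dashed line, 0.086) of all 916 tested entries. Each of the 8 intervals includes 0, from the narrow one of miR-181d-5p to that of miR-181d-3p, which runs from -2.36 to 4.13.

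Summed over the shared seed, the groups overlapped. The 4 entries of the 5p arm summed to 17465, 18571 and 22578 in si-circCpsf6 and to 15759, 19765 and 25041 in si-NC. The si-circCpsf6 sums all lie inside the si-NC range. Their mean was 19538 ± 2690 in si-circCpsf6 and 20188 ± 4655 in si-NC, 96.8% of si-NC, with a difference of -0.030 in log2 (two-sided exact permutation test, p = 0.9, where 3 libraries against 3 can give no p below 0.1). Without si-NC replicate 3 the difference was 0.14. The 3p entries summed to 1021 ± 141 in si-circCpsf6 and 1186 ± 253 in si-NC, a log2 difference of -0.20 (exact permutation p = 0.4). With 1 library left out it ran from -0.39, without si-NC replicate 3, to -0.089, without si-circCpsf6 replicate 1. All 8 entries together held from 0.612% to 0.836% of the summed values in si-circCpsf6 libraries and from 0.572% to 1.03% in si-NC libraries.

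The make-up of the 5p sum varied widely between replicates. miR-181c held 47.5%, 39.4% and 53.4% of it in si-circCpsf6 replicates 1, 2 and 3, and 29.0%, 32.3% and 52.8% in si-NC replicates 1, 2 and 3. si-NC replicate 3 sits with the si-circCpsf6 libraries, while the other si-NC libraries lie below all of them. For miR-181d the shares were 37.4%, 47.5% and 36.4% in si-circCpsf6 and 54.6%, 50.0% and 38.4% in si-NC, the reverse arrangement. miR-181c and miR-181d are cut from hairpins 85 bases apart, and the log2 ratio of their 5p entries averaged 0.21 ± 0.43 in si-circCpsf6 and -0.36 ± 0.72 in si-NC. Without si-NC replicate 3 the si-NC mean was -0.77 ± 0.20 (n = 2), and without si-NC replicate 1 it was -0.084 ± 0.77 (n = 2). This ratio was looked at after the values were seen and was given no test.

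Taken as a pair and without the miR-181b entry, miR-181c and miR-181d held 84.9%, 86.9% and 89.8% of the 5p sum in si-circCpsf6. In si-NC they held 83.6%, 82.4% and 91.2%. miR-181b held 8.12 ± 1.82% in si-circCpsf6 and 8.92 ± 3.37% in si-NC. Counted with miR-181d, from which it may not be separable, it made 48.6 ± 7.16% in si-circCpsf6 and 56.6 ± 11.5% in si-NC. miR-181a held 4.69 ± 0.86% in si-circCpsf6 and 5.37 ± 1.39% in si-NC, a difference of -0.67 percentage points (exact permutation p = 0.6, -1.47 points without si-NC replicate 3). If the miR-181b entry is counted with miR-181d, miR-181a is the only 5p member that does not come from chromosome 8. Chromosome 8 would then hold all of the 5p sum except the miR-181a share. That share ran from 4.19% to 5.69% in si-circCpsf6 libraries and from 3.78% to 6.33% in si-NC libraries.

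**Figure D3:**
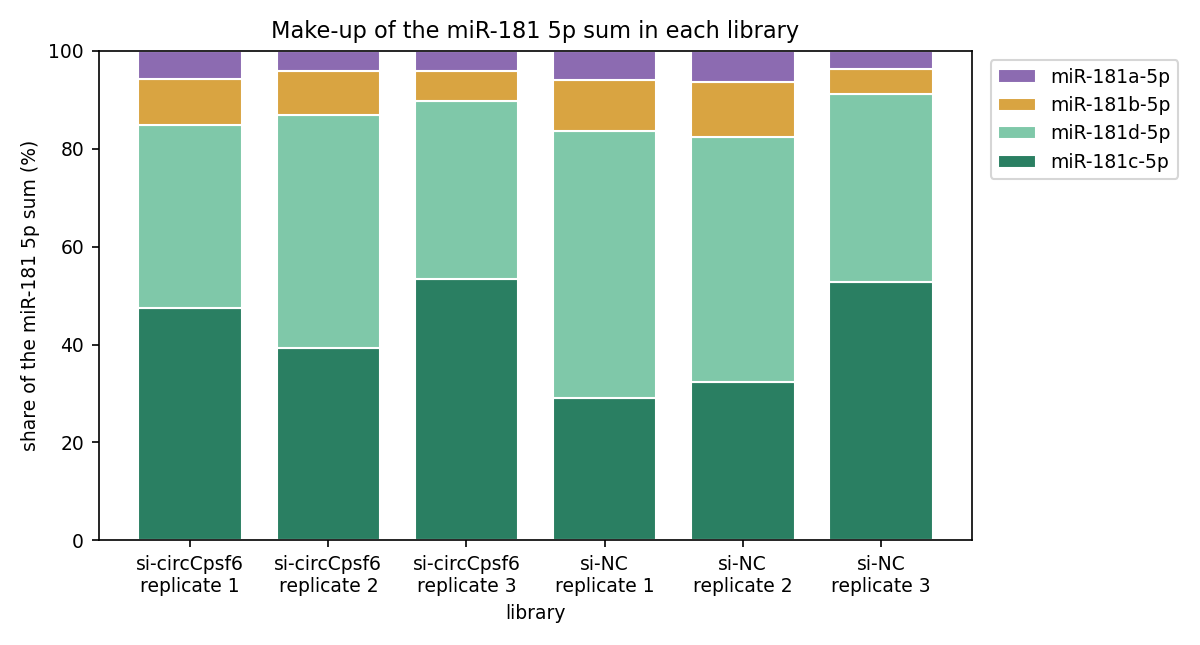
Share of the miR-181 5p sum in percent held by miR-181c, miR-181d, miR-181b and miR-181a in each library, si-circCpsf6 left of si-NC. miR-181c and miR-181d together take from 82.4% to 91.2%, and the miR-181c share runs from 29.0% in si-NC replicate 1 to 53.4% in si-circCpsf6 replicate 3.

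The 3p arms, which name the hairpin, came mostly from Mir181c on chromosome 8. miR-181c-3p and miR-181d-3p, from chromosome 8, held from 89.7% to 94.5% of the 3p sum in the 6 libraries. Nearly all of this was miR-181c-3p, with a mean of 1007 over the 6 libraries. miR-181d-3p had a mean of 16, the lowest of the 3p entries. miR-181a-2-3p, from chromosome 2, held from 3.92% to 7.33%, and miR-181a-1-3p, from chromosome 1, from 1.31% to 2.95%. The log2 ratio of miR-181a-1-3p to miR-181a-2-3p averaged -1.40 ± 0.26 in si-circCpsf6 and -1.29 ± 0.50 in si-NC (difference -0.11, exact permutation p = 0.8, from -0.38 to 0.11 with 1 library left out). How reads were assigned between miR-181a-1-3p and miR-181c-3p, which differ by 2 bases, is not stated in the labels or file headers.

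The arms of each hairpin were listed at unequal levels, and the ratio was not called different for any member. Across 217 miRNAs with both arms, limma on the log2 ratio of 3p to 5p called 0 at an adjusted p under 0.05 (0.00%), and 7 had an unadjusted p under 0.05 (3.23%), none of them miR-181. Without si-NC replicate 3, 2 of 216 ratios were called, neither of them miR-181, and 19 (8.8%) had an unadjusted p under 0.05. For miR-181c the 3p value was 9.79%, 14.2% and 7.78% of the 5p value in si-circCpsf6 and 27.2%, 18.6% and 6.19% in si-NC. The first 2 si-NC libraries lie above all others and si-NC replicate 3 below all others. The change of the log2 ratio was -0.51 (SE 0.64, 95% interval -2.09 to 1.06, adjusted p = 0.998), and without si-NC replicate 3 it was -1.13 (interval -2.14 to -0.12, unadjusted p = 0.0343, adjusted p = 0.491). Without si-NC replicate 1 it was -0.064.

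miR-181a, whose 3p value is the sum of its hairpins, had 4.83%, 8.47% and 11.4% in si-circCpsf6 and 9.0%, 8.23% and 8.14% in si-NC (change of the log2 ratio -0.12, SE 0.43). Its replicates were tight in si-NC and spread on both sides of them in si-circCpsf6. miR-181d was read almost only from its 5p arm, the 3p value being at most 0.465% of it in si-circCpsf6 and at most 0.273% in si-NC. The change of its log2 ratio was 1.15 (SE 1.39) and took the opposite sign, -0.33, without si-NC replicate 3, where the 3p arm is listed at 0.

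**Figure D4:**
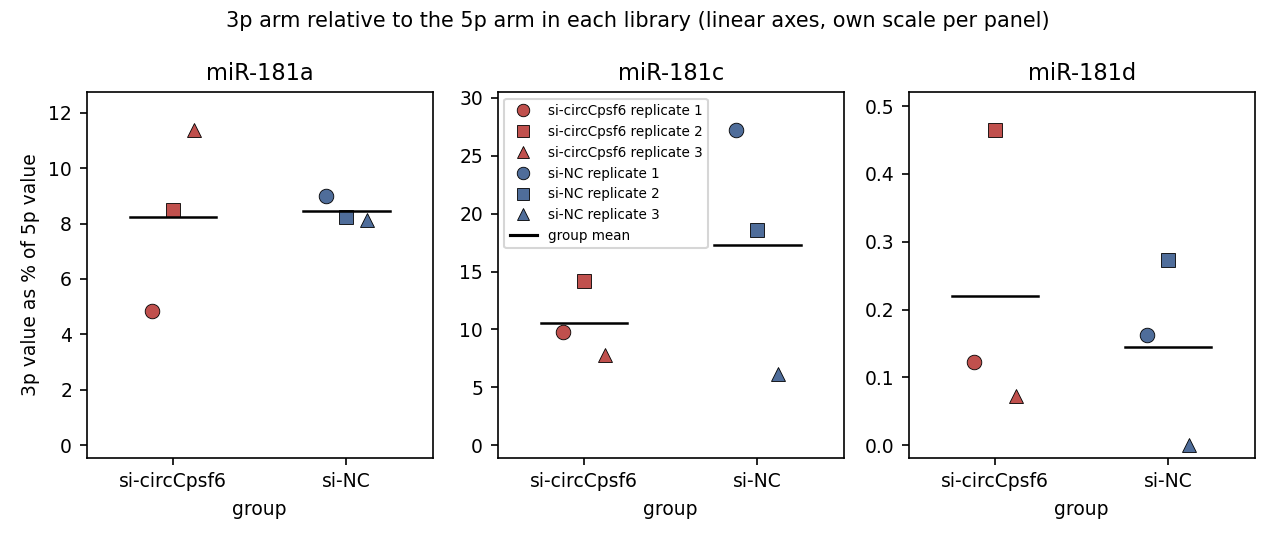
The 3p value as a percentage of the 5p value for miR-181a, miR-181c and miR-181d, on a linear axis with its own scale in each panel, with si-circCpsf6 left of si-NC, 1 symbol per replicate and a line at the group mean. For miR-181c the si-NC libraries run from 6.19% to 27.2% and enclose the si-circCpsf6 libraries, which run from 7.78% to 14.2%.

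The members differed in how much they varied among replicates. The SD of log2(value + 1) within groups was 0.18 for miR-181d-5p, 0.21 for miR-181a-5p, 0.31 for the miR-181b entry and 0.61 for miR-181c-5p. Among 206 entries with a mean between 500 and 20000 the median was 0.46, and 18 entries varied less than miR-181d-5p, 25 less than miR-181a-5p and 139 less than miR-181c-5p. Without si-NC replicate 3 the SD of miR-181c-5p fell to 0.36 and the median to 0.29. The SD was then 0.20 for miR-181d-5p and 0.23 for miR-181a-5p. In that setting 141 of the 206 entries varied less than miR-181c-5p, 61 less than miR-181d-5p and 73 less than miR-181a-5p. The SD of miR-181d-5p moved most without si-circCpsf6 replicate 1 (to 0.096), and that of miR-181a-5p without si-NC replicate 2 (to 0.15). The window of means was set after the values were seen.

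Outside the family, the entries whose pattern over the 6 libraries was most like that of miR-181c-5p, which had the highest mean by a margin within its spread, were miR-23a-3p, miR-130b-3p, miR-883a-5p_R+1, miR-101a-3p_L+1R-1 and miR-467e-5p. The measure was the root mean square difference of log2 values centred on each entry's mean, over 368 entries with a mean of 100 or more. It was 0.19 for miR-23a-3p, listed at 20759, 15899 and 25952 in si-circCpsf6 and 14598, 15493 and 32223 in si-NC, and from 0.23 to 0.25 for the other 4, against a median of 0.71. These entries were picked as the nearest, so they lie below that median by selection. In miR-23a-3p, as in miR-181c-5p, si-NC replicate 3 was the highest library, and no distance without that library is given. Within the family the nearest was miR-181d-5p, at 0.56. The other miR-181 entries were at 0.59 to 2.15.

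Among miRNAs that, like miR-181, are known from blood and lymphoid cells, miR-146b-5p and miR-146a-5p, which restrain inflammatory signalling, were the most abundant. Of the 9 in the list, 5 were tested and 0 were called in either direction, with a median log2 change of -0.62. That median is the value of miR-451a, listed at 4, 0 and 0 in si-circCpsf6 and 0, 17 and 0 in si-NC. miR-142, miR-142a, miR-155 and miR-223 were not listed. miR-146b-5p averaged 7997 ± 805 in si-circCpsf6 and 10594 ± 3918 in si-NC (log2 change -0.33). miR-146a-5p was at 2577, 2320 and 1743 in si-circCpsf6 and 4649, 3780 and 3049 in si-NC, without overlap (log2 change -0.79, SE 0.28, limma adjusted p = 0.553). The groups did not overlap for 107 of the 916 entries tested (11.7%). miR-150-5p, a lymphocyte miRNA, averaged 18.3 ± 10.6 in si-circCpsf6 and 27.3 ± 1.53 in si-NC. Of the 8 neuronal miRNAs 0 were called, with 5 higher and 3 lower values and a median log2 change of 0.15.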

How the data were processed

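Small RNA (total RNA, Trizol) of 6 N2A libraries was analysed, 3 per group by their titles. Libraries were made with the TruSeq small RNA kit, per the labels' protocols, and the build was mm9, per the submitters' processing notes. For the aligner, counting, normalization and miRNA release, the sources used here give nothing. The deposited values, used here as a score and not as counts, are read numbers that the authors normalized, per the file headers, and all are whole. The authors' own fold changes and p-values were not used. The members and lists were chosen with earlier results of these data known.

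There were 178 rows with the same values as an earlier row. Such a row was merged where 3 or more libraries were above 0 or where only the suffix of the name differed. The 916 entries with a mean of 1 or more were tested on log2(value + 1) with limma 3.58.1 under R 4.3.3, with a variance trend, group as the only term, with Benjamini-Hochberg adjustment over all of them at 0.05. A log2 change is on that scale, which understates changes of low entries. The 3p to 5p ratio of 217 miRNAs was tested by limma without a trend, and sums and shares by two-sided exact permutation tests. The limma and permutation steps were tested on simulated data. Every miR-181 entry was reported, and from other lists at most 3 of the most abundant members. miR-205-5p, miR-451a, miR-124-3p and miR-9-5p were added after their values were seen. The 5 entries most like miR-181c-5p were chosen by the smallest distance. Sequences came from RefSeq and positions from GENCODE M21 (both GRCm38), by name; other calculations used Python 3.11.15, numpy 2.4.6, pandas 2.3.3 and matplotlib 3.10.9. Alternatives were pseudocounts of 0.1 and 5, other filters, rescaling, identical rows kept apart, array weights, a replicate block and each library left out. The spread between replicates and the miR-181c to miR-181d ratio with 1 library left out were added after seeing the data.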

Additional observations from a re-analysis of the deposited data

How the results depend on the processing

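No miR-181 entry was called under any of the 15 alternatives of the test. Over all entries, 31 were called with array weights, 0 to 4 with 1 library left out (4 without si-NC replicate 3) and 0 under the other settings. Unadjusted, 2 of 8 miR-181 entries and 210 of 916 entries (22.9%) had a p under 0.05 with array weights, and 1 of 8 and 127 of 932 (13.6%) without si-NC replicate 3. With 1 library left out, the log2 change ran from -0.029 to 0.74 for miR-181c-5p, from -0.31 to 0.10 for the miR-181b entry, from -0.57 to 0.011 for miR-181a-2-3p and from -0.57 to 1.84 for miR-181d-3p, which was -0.54 with array weights. The change of the arm ratio ran from -0.39 to 0.22 for miR-181a, from -1.13 to -0.064 for miR-181c and from -0.33 to 2.06 for miR-181d. The cause was not tested. The other entries and sums kept their direction except the 5p sum (-0.20 to 0.14) and the locus ratio (-0.38 to 0.11). Same-numbered libraries deviated together for numbers 2 and 3 (r = 0.48 and 0.40) but hardly for 1 (r = 0.047), so the numbers were not taken to pair the samples. Number 2 of one group and number 3 of the other deviated oppositely (r = -0.44 and -0.40). Deviations from a group's own mean sum to 0 over its replicates, so these negative values add little to the positive ones. With the replicate block 0 entries were called, and the 5p sum differed by -0.030. Unadjusted, 0 of 8 miR-181 entries and 87 of 916 entries (9.5%) had a limma p under 0.05 with that block. Leaving out variant entries keeps miR-181a alone on the 5p arm, so no composition is given there. Depth is unknown, and 3p arms near 0 limit what can be seen.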

Other observations

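Some entries carry miR-181 names of the opossum (mdo) and were kept out of the family by their names, 3 after merging. mdo-miR-181a-5p_R+3 was listed at 74, 39 and 31 in si-circCpsf6 and 29, 80 and 23 in si-NC. mdo-miR-181b-5p_R+3_1ss12CT, which shares the substitution part of its suffix with the mouse miR-181b entry, was at 19, 16 and 16 in si-circCpsf6 and 26, 33 and 0 in si-NC. mdo-miR-181b-5p_R+3, without the substitution, was at 4, 0 and 0 in si-circCpsf6 and 0, 8 and 0 in si-NC. Adding them to the 5p sum, an alternative chosen after seeing the data, left its log2 difference at -0.030.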
